A study of Mus musculus with 33 samples.

Results

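The replication-dependent histone genes encode the core histones H2A, H2B, H3 and H4 and the linker histone H1, and they were followed here across haematopoietic stem cells (HSC), common lymphoid progenitors (CLP) and granulocyte-macrophage progenitors (GMP) of old mice. Members were all symbols named for the Hist1, Hist2, Hist3 and Hist4 clusters, except names ending in -ps, with a mean above 1 CPM (counts scaled to the library total) over the 24 libraries in which the 3 cell types were sequenced together. Of 55376 gene symbols in the files, 69 carried such a name, and 59 passed. The annotation lists 1 of the 59, Hist1h2aj (mean 2.26 CPM), as an unprocessed pseudogene. They comprised 6 H1, 15 H2A, 15 H2B, 10 H3 and 13 H4 genes, 49 of them in the Hist1 cluster on chromosome 13, 7 in Hist2 on chromosome 3, 2 in Hist3 on chromosome 11 and 1 in Hist4 on chromosome 6. The member nearest to the limit was Hist2h2aa2 with a mean of 1.06 CPM, and the first gene left out was Hist2h3c2 with 0.744 CPM.

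All mice were male C57BL/6 animals of 24 to 29 months. O-WT mice drank water without additive, and O-NR mice received nicotinamide riboside (NR), a vitamin B3 form from which cells make NAD+, in their drinking water for 4 to 6 weeks. O-NR-RC mice had received NR and were then kept without it for 2 months. HSCs were sorted as lineage-negative, cKit+ and Sca1+ cells that were CD150+ but negative for CD34 and Flk2. Cohort 2 held 4 O-WT and 4 O-NR libraries each of HSCs, CLPs and GMPs (24 libraries). Same-numbered libraries of a treatment were taken to come from 1 mouse, as their file names share a number, but the labels do not name the mouse. Cohort 1 held 9 HSC libraries, of which 2 were O-WT, 4 O-NR and another 3 O-NR-RC. Libraries were strand-specific and made from total RNA with random primers, so that transcripts without a poly(A) tail were not lost at priming. The deposited counts summed to 4792380 to 18213674 per library in cohort 2 and 8897256 to 23816042 in cohort 1. HSC, CLP and GMP libraries of cohort 2 were separated by their marker lists. The 7 HSC markers summed to 963 to 1857 CPM in HSCs and at most 82 CPM elsewhere, the 6 CLP markers to 1553 to 4279 CPM in CLPs and at most 43 CPM elsewhere, and the 6 GMP markers to 18336 to 24061 CPM in GMPs and at most 531 CPM elsewhere. The submitters' source label of the GMP libraries names the common myeloid progenitor, and their titles name the GMP.

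A dividing cell must wrap the DNA it copies into new nucleosomes, and it makes most of the histones for this in S phase from the clustered genes described here. As a class, their mRNAs have neither introns nor a poly(A) tail, although the annotation splits 3 members, Hist1h2bc, Hist1h2be and Hist1h2bp, into 2 exon blocks. The class is known for a short stem-loop in the 3′ untranslated region, which the stem-loop-binding protein (Slbp) holds through processing, translation and decay, and with the U7 snRNP it sets the site of 3′ end cleavage. Haematopoietic stem cells of adult bone marrow divide rarely, whereas lymphoid and granulocyte-macrophage progenitors cycle.

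The stem-loop is shown because it is the mRNA element known to mark this class of genes. Among 47 members with an annotated 3′ untranslated region, 21 held the 16-base sequence in its most frequent form. It was found in 27 of 21022 protein-coding genes with such a region, 26 of which were histone genes of these clusters. The 5 forms found in more than 1 histone gene are given 5′ to 3′, with the 6 bases of each stem arm in capitals and the 4 bases of the loop in lower case.

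Form 1, in 26 genes: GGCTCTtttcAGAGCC

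Form 2, in 7 genes: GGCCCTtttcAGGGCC

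Form 3, in 6 genes: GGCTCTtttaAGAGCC

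Form 4, in 2 genes: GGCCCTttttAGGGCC

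Form 5, in 2 genes: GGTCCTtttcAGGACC

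The forms differ in paired stem bases and at the last loop base. Forms 2, 4 and 5 were held by H4 genes, and forms 1 and 3 by genes of the other 4 types. Hist2h2be, an H2B gene best known from olfactory sensory neurons, came no nearer than 6 mismatches to form 1 in its annotated region, and Hist1h2bc no nearer than 5. Hist1h1a and Hist2h3b came no nearer than 8.

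The promoters were read as the 250 bases before the transcription start in RefSeq (GRCm38.p6), in which 53 of the 59 members were matched. The octamer ATTTGCAT, bound by POU-domain factors and known from H2B promoters, was present on either strand in 12 of 53 (22.6%), 6 of 14 H2A and 6 of 13 H2B genes, and in 1.61% of all 27025 promoters. CCAAT, the core of the element bound by NF-Y, was present in 44 of 53 (83.0%) and in 34.5% of all promoters. It was in every matched H1, H2A, H2B and H3 promoter but in 3 of 12 H4 promoters. TATAAA was in 27 of 53 (50.9%) and in 13.0% of all promoters. Some neighbouring H2A and H2B genes on opposite strands have overlapping windows, so a site can count for both genes. Hist1h2ae and Hist1h2bg shared an octamer, as did Hist1h2ah and Hist1h2bk. CCAAT and TATAAA sites were shared in the same way, so these counts are of genes and not of separate sites. Promoters of 4 members are printed 5′ to 3′ in the direction of transcription, because the first 2 belong to genes that were far higher in progenitors than in HSCs and the last 2 to genes that did not pass that test. Capitals mark CCAAT, ATTTGCAT and TATAAA, read on either strand, with no overlap between them.

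Hist1h1b, chr13:21780626-21780875, minus strand: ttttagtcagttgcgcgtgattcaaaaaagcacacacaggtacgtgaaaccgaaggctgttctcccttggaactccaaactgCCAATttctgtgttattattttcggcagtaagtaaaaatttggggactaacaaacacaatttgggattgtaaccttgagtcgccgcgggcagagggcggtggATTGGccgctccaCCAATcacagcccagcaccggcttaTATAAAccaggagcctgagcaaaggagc

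Hist1h3c, chr13:23745522-23745771, minus strand: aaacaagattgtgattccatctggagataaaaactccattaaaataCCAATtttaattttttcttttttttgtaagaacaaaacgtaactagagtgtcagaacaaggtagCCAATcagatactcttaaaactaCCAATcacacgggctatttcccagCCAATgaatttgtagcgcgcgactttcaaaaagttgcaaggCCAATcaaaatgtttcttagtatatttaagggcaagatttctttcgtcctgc

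Hist1h1t, chr13:23695561-23695810, plus strand: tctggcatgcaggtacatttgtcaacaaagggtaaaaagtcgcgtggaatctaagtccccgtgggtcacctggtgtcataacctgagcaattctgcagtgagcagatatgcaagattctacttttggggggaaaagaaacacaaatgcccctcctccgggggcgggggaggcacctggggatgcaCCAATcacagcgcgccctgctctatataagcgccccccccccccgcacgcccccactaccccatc

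Hist3h2a, chr11:58954435-58954684, plus strand: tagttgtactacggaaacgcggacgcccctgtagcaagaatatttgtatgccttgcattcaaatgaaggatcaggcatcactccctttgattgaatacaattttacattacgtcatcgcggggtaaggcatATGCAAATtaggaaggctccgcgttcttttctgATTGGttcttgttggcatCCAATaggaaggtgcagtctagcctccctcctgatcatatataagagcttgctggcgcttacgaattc

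All 4 held at least 1 CCAAT, so this motif did not separate the 2 pairs. A match is a description of these letters and not evidence of binding.

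In O-WT mice of cohort 2 the histone genes were 9.87-fold higher in GMPs and 7.29-fold higher in CLPs than in HSCs when their scaled counts were added up. CPM values below were scaled by TMM, a factor per library that assumes most genes do not differ, separately in each cohort. The summed level of the 59 members was 1012, 622, 967 and 1321 CPM in the 4 O-WT HSC libraries and 1101, 664, 1023 and 1297 CPM in the O-NR HSC libraries. In CLPs it was 9057, 7171, 3899 and 8971 CPM (O-WT) and 8052, 10510, 5174 and 7349 CPM (O-NR). GMPs held 9586, 11106, 9429 and 7603 CPM (O-WT) and 9586, 8955, 8532 and 9793 CPM (O-NR). All 16 progenitor libraries lay above all 8 HSC libraries, and CLP libraries spread more widely than GMP libraries. The O-WT means differed by 2.87 on the log2 scale between CLPs and HSCs (7.29-fold, pooled SD 0.51, n = 4 mice a group) and by 3.30 between GMPs and HSCs (9.87-fold, pooled SD 0.36). Without TMM, as CPM of the library total, the sums were 837 to 1308 in HSCs, 5925 to 9712 in CLPs and 7199 to 8762 in GMPs, and the GMP difference was 2.94. The O-WT libraries then held 9624, 9167, 6527 and 8850 CPM in CLPs and 8016, 8762, 7613 and 7199 CPM in GMPs. The order of CLPs and GMPs thus depended on the scaling. In bulk libraries fewer cells of a cycling kind and less RNA per cell cannot be told apart.

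**Figure D1:**
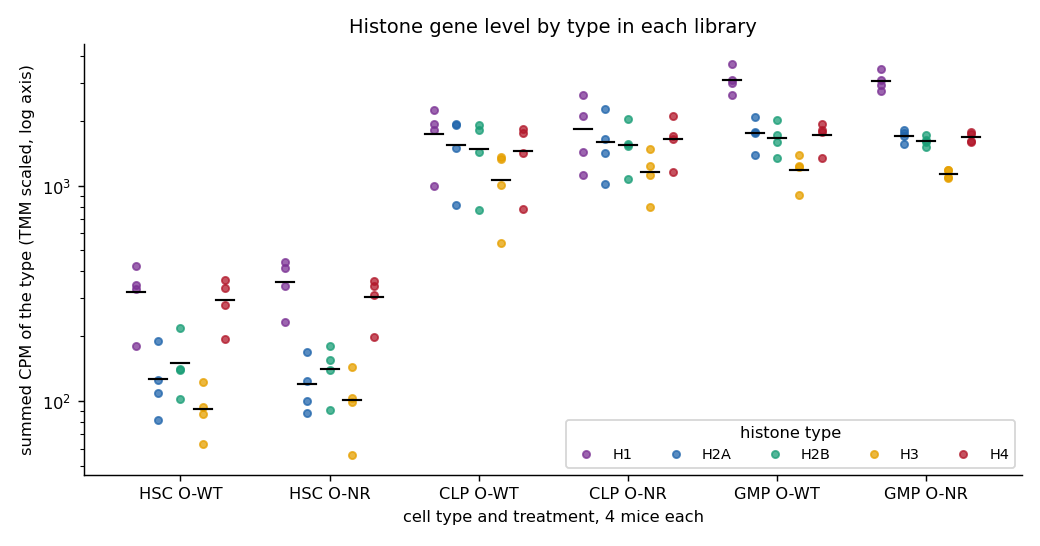
Summed TMM-scaled CPM (log axis) of the members of each histone type in each cohort 2 library, 4 mice per cell type and treatment, with a bar at the group mean. Every type was higher in each CLP and GMP library than in each HSC library, and H1 reached 2631 to 3694 CPM in GMPs.

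One library needs naming. CLP O-WT replicate 3 had the smallest total of cohort 2, the lowest TMM-scaled histone sum of the CLPs (3899 CPM) and the highest sum of the 1971 olfactory and vomeronasal receptor genes (Olfr and Vmn), which blood cells are not known to use. Those receptor genes summed to 1782 to 3365 CPM in HSCs, 2289 to 4960 CPM in CLPs and 1088 to 2509 CPM in GMPs. Per kilobase of exon they averaged 0.165 to 0.786 CPM over cohort 2, against 12.1 to 25.9 CPM for the members in HSCs, 98.6 to 270.0 CPM in CLPs and 178 to 263 CPM in GMPs. HSC O-WT replicate 4 had the highest histone sum of the HSC libraries, and its B-cell and plasma-cell markers summed to 747 CPM against 28 to 206 CPM in the other 7. The same 8 markers, which include Ebf1 and Pax5, summed to 551 to 1413 CPM in CLPs and 50.9 to 139.9 CPM in GMPs. Among CLPs they were lowest in O-WT replicate 3 and highest in O-NR replicate 2, as were the CLP markers and the histone sum. The TMM factors of these libraries were the largest and the smallest of the CLPs (1.67 and 0.924), which moves every scaled sum in those directions. By library total the lowest CLP histone sum was 5925 CPM in O-NR replicate 3, against 6527 CPM in O-WT replicate 3. The part of the receptor and marker counts in the histone sums was not tested. Leaving out any single library gave 54 called members in each progenitor of the O-WT mice.

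By gene, nearly every member was higher in progenitors. Of 57 members tested in O-WT mice, 54 were higher in CLPs and 54 in GMPs than in HSCs at an adjusted p under 0.05, and none was lower. Of all genes tested, 9.57% were higher in CLPs and 21% in GMPs. The median log2 fold change of the members was 3.42 for CLPs and 3.56 for GMPs, where that of all genes was 0.04 and -0.40. In the O-NR mice, which are other animals, 54 were again higher in each progenitor (background 19.8% and 25%), with medians of 3.77 and 3.69, and they were the same 54 genes as in O-WT mice. DESeq2 also called 54 in each of the 4 comparisons. The O-WT groups did not overlap for 54 members in either progenitor, against 9.25% of all genes for CLPs and 20% for GMPs.

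A member that is low in HSCs could enter the test only by being higher elsewhere, since the filter asked for more than 3 CPM in at least 4 of the 12 libraries and the members were chosen by a mean over all cell types. Of the 57 tested in O-WT mice, 37 had more than 3 CPM in all 4 HSC libraries and so passed on their HSC values alone, and 36 of these were higher in CLPs and 36 in GMPs. In O-NR mice 35 did, and 34 and 34 of them were higher. The other 20 O-WT and 22 O-NR members entered through the progenitors, and their calls are not independent of that.

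By type, H2B genes differed most, with a median log2 fold change of 3.99 in CLPs and 4.00 in GMPs of O-WT mice, and H3 (3.58 and 3.61) and H2A (3.56 and 3.69) lay close to each other. H4 and H1 differed least in CLPs, at 2.37 and 2.16, while in GMPs H1 (3.09) lay above H4 (2.79). All 10 H3 and all 13 H4 genes passed, as did 13 of 14 tested H2A, 13 of 14 H2B and 5 of 6 H1 genes. By cluster, 48 of 49 Hist1 genes passed, 5 of 6 tested Hist2 genes and the single Hist4 gene, Hist4h4, an H4 gene, while the 1 tested Hist3 gene did not. These medians come from genes of the same libraries and from near-identical copies, and differences between types were not tested.

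**Figure D2:**
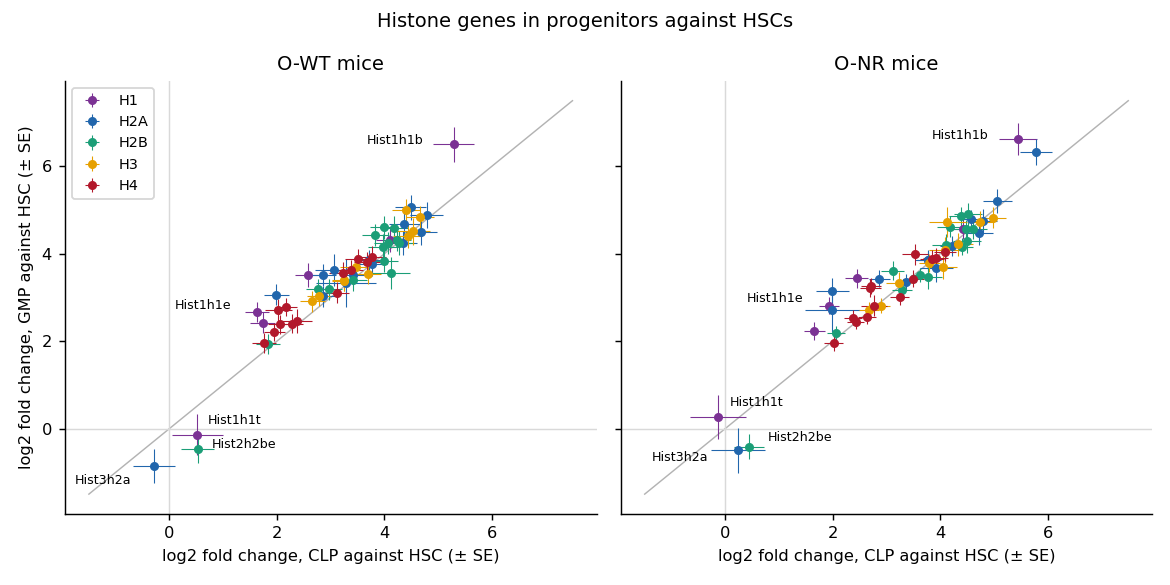
Log2 fold change (± SE) of each tested member in CLPs (horizontal) and GMPs (vertical) against HSCs, for O-WT mice (left) and O-NR mice (right), coloured by histone type, with the line of equality in grey. Hist1h1b stands at the top, at 5.29 and 6.50 in O-WT mice, and Hist1h1t, Hist2h2be and Hist3h2a stay near 0.

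Hist1h1b, a linker histone gene, showed the largest difference of all members in O-WT mice. HSCs held the least, with 1.29, 2.90, 7.66 and 11.9 CPM in the O-WT libraries and 4.94, 2.88, 2.77 and 14.4 CPM in the O-NR libraries. In CLPs it reached 293, 272, 142 and 261 CPM and in GMPs 586, 682, 573 and 454 CPM (O-WT). The 3 cell types did not overlap. The log2 fold change was 5.29 ± 0.38 (SE, adjusted p = 5.00e-13) in CLPs and 6.50 ± 0.40 (adjusted p = 8.10e-15) in GMPs. In O-NR mice it was 5.45 ± 0.35 and 6.63 ± 0.36. Hist1h1b was among the members that entered the test through the progenitors in both treatments. Its calls against HSCs are not independent of that.

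Hist1h1c and Hist1h1e, linker histone genes that HSCs also expressed, showed the smallest differences in CLPs among the members that passed. Hist1h1c, the member with the most counts, stood at 166, 72.3, 138 and 157 CPM in O-WT HSCs, 588, 433, 254 and 506 CPM in CLPs and 711, 874, 712 and 649 CPM in GMPs. Its log2 fold change was 1.73 ± 0.23 in CLPs and 2.42 ± 0.23 in GMPs (adjusted p = 2.37e-07 and 2.67e-10). For Hist1h1e the values were 108, 54.9, 91.3 and 127 CPM in O-WT HSCs, 369, 307, 174 and 337 CPM in CLPs and 627, 739, 572 and 542 CPM in GMPs. It differed by 1.64 ± 0.22 and 2.66 ± 0.23. Each ran without overlap between HSCs and progenitors. Hist1h1e overlaps Hist1h2be on the same strand, so part of the reads of the pair could not be assigned to either by position alone. Hist1h1d, with 34.8 to 90.0 CPM in O-WT HSCs and 611 to 896 CPM in GMPs, and Hist1h1a, with 12.04 to 37.7 CPM and 370.5 to 499.7 CPM, lay between these and Hist1h1b.

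The H1 genes made up the linker histone counts in different shares. Hist1h1c took 37.0 to 48.3% of H1 counts in the 8 HSC libraries, 23.8 to 26.5% in the CLP libraries and 22.8 to 24.7% in the GMP libraries. Hist1h1e took 26.4 to 31.4%, 16.5 to 20.2% and 19.0 to 21%. Hist1h1b took 0.375 to 3.26% in HSCs, 13.1 to 14.95% in CLPs and 17.3 to 19.0% in GMPs, and its 3 ranges did not overlap. Hist1h1a was highest in CLPs, at 20.8 to 22.9%, against 5.004 to 8.86% in HSCs and 13.5 to 16.01% in GMPs. The ranges of Hist1h1d overlapped between HSCs and CLPs and between CLPs and GMPs (13.9 to 21.2%, 18.5 to 22.3% and 21.8 to 24.3%). These are shares of counts, and the genes differ in annotated length, so they compare cell types and not genes.

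**Figure D3:**
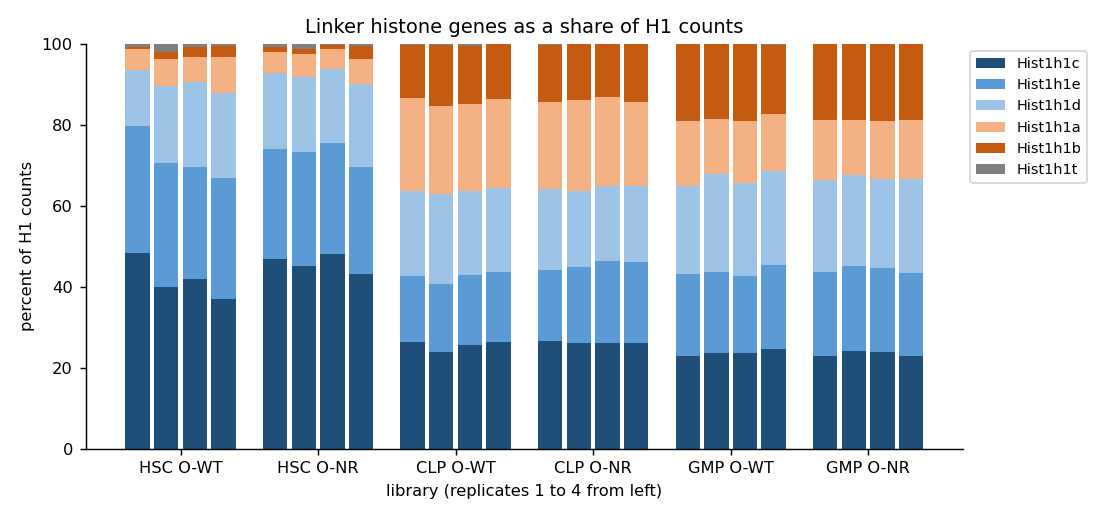
Share of H1 counts (percent) of each linker histone gene in each cohort 2 library, 4 libraries per cell type and treatment in the order of the replicates. Hist1h1c and Hist1h1e take most of each HSC bar, and Hist1h1a and Hist1h1b together take more of each CLP and GMP bar than of any HSC bar.

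Among the core histones, each progenitor library lay above each HSC library for the 8 members with the most counts, 2 in each type. In H2A, Hist1h2an (which encodes the protein shared by 7 H2A members) had 1.56, 1.37, 2.87 and 5.40 CPM in O-WT HSCs, 112, 74.8, 40.3 and 96.9 CPM in CLPs and 98.5, 105, 79.0 and 72.2 CPM in GMPs. It had the second largest fold change in CLPs, 4.78 ± 0.30 on the log2 scale (adjusted p = 2.48e-14). Hist1h2ah went from 0.920, 0.512, 0.870 and 1.47 CPM in HSCs to 25.2, 21.8, 11.3 and 30.2 CPM in CLPs and 30.7, 39.1, 39.2 and 25.7 CPM in GMPs, a difference of 5.06 ± 0.29 for GMPs (adjusted p = 1.37e-15). Only 16.7% of 100-base windows of Hist1h2an and 12.1% of those of Hist1h2ah are found nowhere else among annotated transcripts, so their counts depend on how reads shared with copies were treated. Hist1h2an and Hist1h2ah were also among the O-WT members that entered the test through the progenitors. Their calls against HSCs are not independent of that. All 15 H2A members overlap an annotated gene on the opposite strand, as do 3 of the 44 other members. The strand setting of the counting is not given in the sources used here, so reads of such a pair may not have been told apart. The H2A members with the most counts, Hist1h2ak and Hist2h2ac, are 89.5% and 93.1% unique. Hist1h2ak had 17.2 to 45.6 CPM in O-WT HSCs and 205 to 499 CPM in CLPs, and Hist2h2ac had 23.7 to 43.1 CPM and 124 to 315 CPM.

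Among H2B genes, Hist1h2bn had 8.37 to 20.7 CPM in O-WT HSCs, 149.6 to 356 CPM in CLPs and 218 to 337 CPM in GMPs (log2 fold change 4.28 ± 0.27 and 4.24 ± 0.27), and Hist1h2bb 10.2 to 22.3, 117 to 306 and 172 to 249 CPM (4.00 ± 0.26 and 3.84 ± 0.26). Hist1h2be had the smallest GMP difference of the members that passed, with 51.1, 31.4, 40.6 and 74.9 CPM in O-WT HSCs and 205, 236, 178 and 157 CPM in GMPs (1.93 ± 0.22, adjusted p = 1.10e-08). For H3, Hist1h3b stood at 4.51, 5.30, 10.6 and 16.6 CPM in HSCs and 272, 216, 110.2 and 290.2 CPM in CLPs (4.53 ± 0.31), and Hist1h3e at 30.5, 19.0, 31.8 and 34.5 CPM and 237, 175, 90.7 and 244 CPM (2.66 ± 0.23). In both, each CLP library lay above each HSC library. Hist1h4d, the H4 gene with the most counts, had 173, 97.5, 138 and 181 CPM in HSCs, 605, 483, 271 and 663 CPM in CLPs and 622, 652, 617 and 484 CPM in GMPs (1.76 ± 0.22 and 1.96 ± 0.22). Hist1h4h, the next, differed by 2.27 ± 0.21 and 2.40 ± 0.21.

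All 13 H4 members encode 1 protein of 103 residues, as translated from the GENCODE M21 coding sequences, and the 10 H3 members encode 2 proteins that differ at 1 residue. The 4 genes of the second H3 protein took 10.3 to 20.5% of H3 counts in HSCs, 20.8 to 24.5% in CLPs and 21.6 to 24.2% in GMPs. H2A and H2B members with a coding sequence encode 8 and 10 distinct proteins. Over all member counts, H4 took 27.7 to 33.3% in HSCs, 19.4 to 23.3% in CLPs and 17.4 to 19.3% in GMPs. H2A took 9.78 to 14.4%, 19.3 to 21.6% and 18.0 to 19.0%, H2B 13.6 to 16.5%, 19.0 to 21.4% and 16.7 to 18.1%, and H3 8.42 to 11.1%, 13.9 to 16.7% and 11.9 to 13.0%. H1 took 29.04 to 37.4% in HSCs, 19.5 to 26.2% in CLPs and 32.0 to 35.5% in GMPs. Each HSC library held a larger share of H4 and a smaller share of H2A, H2B and H3 counts than any progenitor library.

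**Figure D4:**
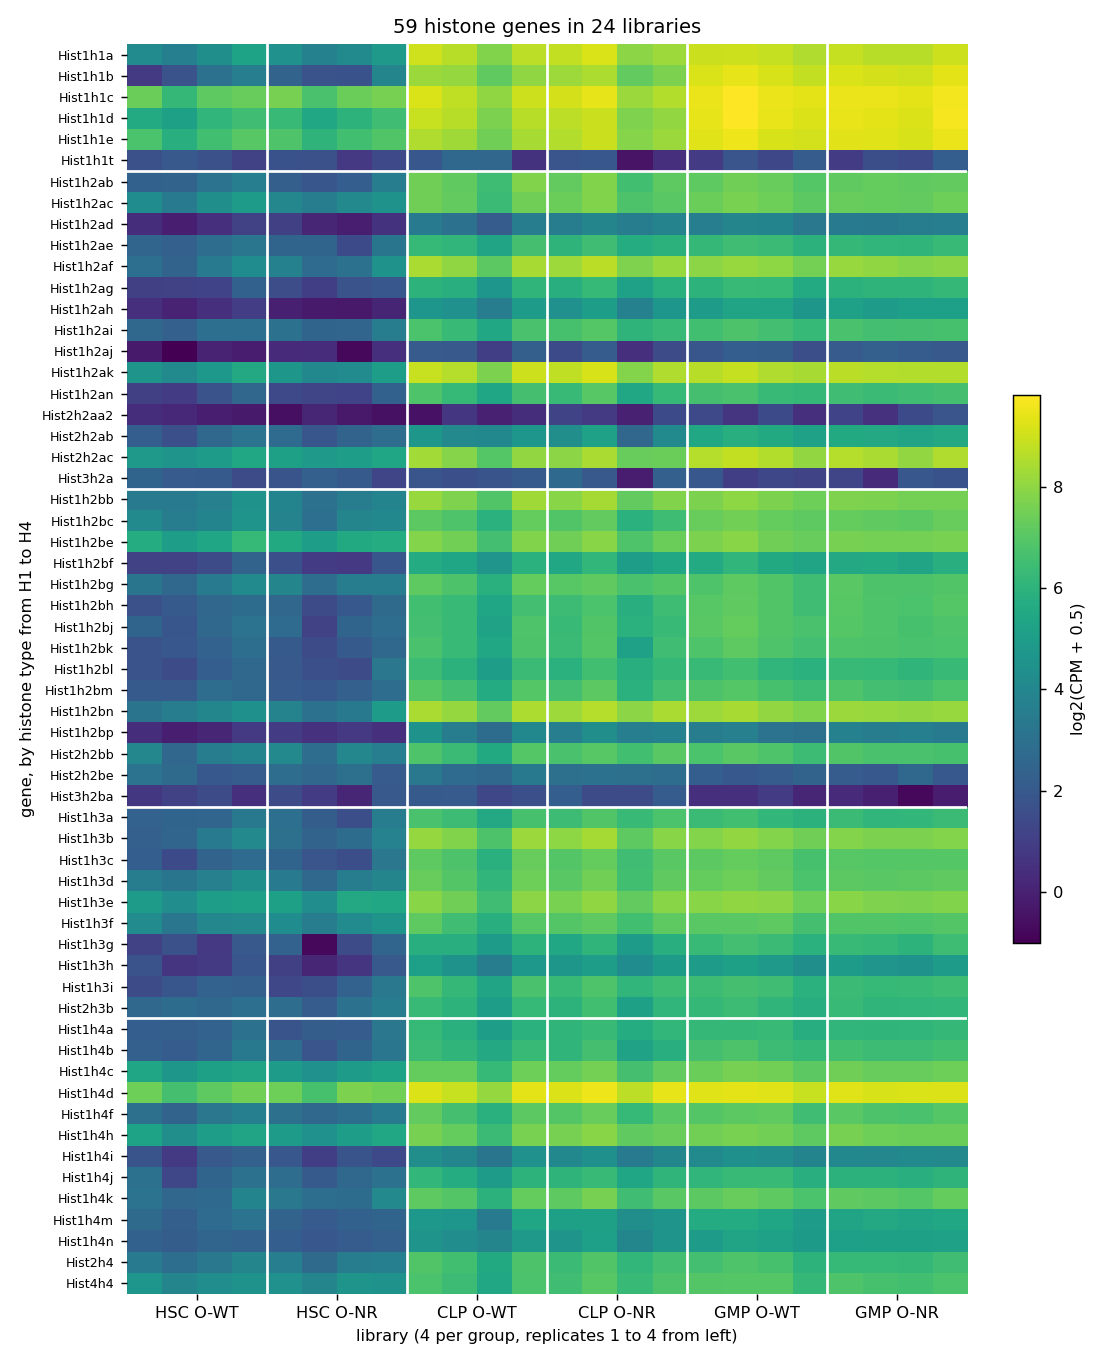
Log2(CPM + 0.5) of the 59 members (rows, by type from H1 to H4) in the 24 cohort 2 libraries (columns, 4 per cell type and treatment). Most rows step up between the HSC columns and the CLP columns, while Hist1h1t, Hist3h2a, Hist2h2be and Hist3h2ba stay dark throughout.

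Of the 3 tested members that did not pass, 2 belonged to Hist2 and Hist3 and 1 to Hist1. In Hist2, Hist2h2ac and Hist2h2ab (H2A), Hist2h2bb (H2B), Hist2h3b (H3) and Hist2h4 (H4) were higher in both progenitors, with log2 fold changes in O-WT mice of 1.99 (Hist2h2ab) to 3.25 (Hist2h3b) in CLPs and 3.06 (Hist2h2ab) to 3.51 (Hist2h2ac) in GMPs. Hist4h4 differed by 2.05 ± 0.21 and 2.39 ± 0.22. Hist2h2be did not pass against HSCs. It had 8.19, 6.15, 3.48 and 3.93 CPM in O-WT HSCs, 9.41, 6.29, 5.86 and 9.92 CPM in CLPs and 4.22, 3.48, 3.94 and 4.85 CPM in GMPs, and its log2 fold change was 0.52 ± 0.31 (adjusted p = 0.21) and -0.48 ± 0.31 (adjusted p = 0.20). In O-NR mice it was 0.45 ± 0.28 and -0.42 ± 0.29. HSC libraries gave it 1.81 to 6.07% of H2B counts, CLP libraries 0.392 to 0.762% and GMP libraries 0.173 to 0.371%. The remaining Hist2 member, Hist2h2aa2, was too low to be tested (0.186 to 3.15 CPM), and 0% of its 100-base windows are unique to it.

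Hist3h2a, an H2A gene of the Hist3 cluster, had 5.06, 3.84, 3.65 and 2.39 CPM in O-WT HSCs, 3.14, 2.58, 2.99 and 3.61 CPM in CLPs and 3.38, 1.53, 2.05 and 1.80 CPM in GMPs, with log2 fold changes of -0.29 ± 0.39 (adjusted p = 0.61) and -0.85 ± 0.39 (adjusted p = 0.074). It overlaps Trim17 on the same strand. Its cluster neighbour Hist3h2ba, an H2B gene, was too low to be tested, at 0.606 to 3.56 CPM in HSCs, 1.99 to 4.12 CPM in CLPs and 0.0866 to 1.31 CPM in GMPs. Hist1h1t, the linker histone of the testis, had 2.67, 3.59, 2.70 and 1.61 CPM in O-WT HSCs, 3.36, 5.62, 5.36 and 1.01 CPM in CLPs and 1.38, 3.13, 2.05 and 3.86 CPM in GMPs (0.52 ± 0.48 with adjusted p = 0.44, and -0.14 ± 0.48 with adjusted p = 0.81). In each case the ranges of HSCs and CLPs overlapped. Per kilobase of exon Hist1h1t had 0.272 to 6.16 CPM, Hist3h2a 0.174 to 2.81 CPM and Hist2h2be 1.31 to 3.79 CPM over cohort 2. The mean of the receptor genes was 0.165 to 0.786 CPM. That of the members was 12.1 to 25.9 CPM in HSCs and higher in CLPs and GMPs. Which part of the counts of Hist1h1t, Hist3h2a and Hist2h2be came from transcripts of the genes was not tested.

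Members with longer annotated exons had smaller median fold changes, a difference that was not tested. The 14 tested members with more than 1000 bases of exon had a median log2 fold change of 2.32 in CLPs and 2.84 in GMPs of O-WT mice, and the 43 shorter ones 3.71 and 3.80. In O-NR mice the medians were 2.44 and 2.81 for the longer and 4.06 and 3.99 for the shorter. This split was chosen after the data were seen. Hist1h1d (7425 bases), Hist1h2be (4446), Hist4h4 (2863), Hist2h2be (2620) and Hist1h1e (1930) are among the longer ones, whose annotation reaches beyond a coding region of the usual histone size. All 18 tested members with most of their 100-base windows shared with other transcripts passed in CLPs and in GMPs. So did 5 of the 8 that are unique throughout, and the other 3 were Hist1h1t, Hist2h2be and Hist3h2a. Of 38 tested members that overlap no exon of another gene, 36 passed in each.

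Between GMPs and CLPs the members differed little, and the direction depended on the scaling. In O-WT mice 12 members were higher in GMPs and 1 lower of 57 tested, where 27.2% of all genes were higher and 34.9% lower, and the members' median log2 fold change was 0.17 against -0.32 for all genes. In O-NR mice 11 were higher and 1 lower (25.5% and 23.8% of all genes), with a median of 0.03 against -0.14. The treatments shared 11 called members. With upper-quartile scaling, which moved the median of all genes to -0.74 in O-WT mice, 3 members were higher and 9 lower (15.8% and 51.3% of all genes). In O-NR mice it gave 4 and 15 (15.8% and 41.7%). Without CLP O-WT replicate 3 the O-WT counts were 4 and 2 (20.9% and 24.6%), and without GMP O-WT replicate 4 they were 20 and 2 (28.6% and 32.3%). The members called in the same direction in both treatments by TMM, DESeq2 and upper-quartile scaling were Hist1h1b, Hist1h1e and Hist2h2ab, higher in GMPs, and Hist2h2be, lower.

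Hist1h1b had the largest difference between the progenitors, 1.21 ± 0.31 (adjusted p = 0.0019) in O-WT and 1.18 ± 0.28 in O-NR mice. Its lowest GMP library (454 CPM) lay above its highest CLP library (359 CPM). Hist2h2ab, an H2A gene, had 25.7, 16.7, 16.1 and 25.4 CPM in O-WT CLPs and 43.1, 55.8, 46.7 and 36.1 CPM in O-WT GMPs (1.07 ± 0.22, adjusted p = 0.00017), without overlap. For Hist1h1e the difference was 1.03 ± 0.22 (adjusted p = 0.00027). Hist2h2be was lower in GMPs, with a log2 fold change of -0.999 ± 0.31 (adjusted p = 0.0077) in O-WT and -0.87 ± 0.29 in O-NR mice, and its O-WT groups did not overlap. Without the filter on low counts its O-WT adjusted p was 0.11. Hist1h2ah had the smallest difference of the members called higher, 0.57 ± 0.22 (adjusted p = 0.024), which became 0.14 (adjusted p = 0.52) with upper-quartile scaling and 0.34 (adjusted p = 0.17) without CLP O-WT replicate 3. Of the H1 genes 4 of 6 were called higher in GMPs in each treatment, and of the H3 genes 1 of 10 in O-WT and 0 of 10 in O-NR mice.

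The genes that act on histone mRNA and protein did not all follow the histone genes. The lists below were fixed for this pathway. The shares of all genes called higher than in HSCs, and called either way between GMPs and CLPs, are as given above. The share of all genes called lower than in HSCs is not given here, so counts of lower genes stand without it. Of 40 genes of DNA replication and S phase, 39 were higher in CLPs and 40 in GMPs of O-WT mice than in HSCs. Rrm2, a subunit of ribonucleotide reductase, had log2 fold changes of 3.96 ± 0.22 and 4.48 ± 0.22, Mki67, a marker of cycling cells, 3.85 ± 0.28 and 3.98 ± 0.28, and Cdc6, a replication licensing factor, 2.39 ± 0.18 and 3.06 ± 0.18. The list summed to 862 to 1571 CPM in HSCs, 2921 to 7512 CPM in CLPs and 6227 to 7797 CPM in GMPs. Its lowest library in each cell type (HSC O-WT 2, CLP O-WT 3 and GMP O-WT 4) was also the lowest for the TMM-scaled histone sum. These libraries had the largest TMM factor of their cell type (1.39, 1.67 and 0.947), which lowers every scaled sum. The markers of each cell type were lowest in them too. By library total the lowest histone sums were in HSC O-NR 3 (837 CPM), CLP O-NR 3 (5925 CPM) and GMP O-WT 4 (7199 CPM). The part of cell cycle differences in the histone levels was not tested.

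Of 25 genes for histone mRNA transcription and 3′ end processing, 4 were higher and 1 lower in CLPs, and 15 higher and 2 lower in GMPs (O-WT). Slbp, the stem-loop-binding protein, averaged 25.8 CPM in O-WT HSCs, 64.3 CPM in CLPs and 94.1 CPM in GMPs, and differed by 1.31 ± 0.19 and 1.82 ± 0.19 (adjusted p = 1.22e-06 and 1.62e-09). Casp8ap2, a factor of histone locus bodies needed for histone mRNA cleavage, differed by 0.54 ± 0.16 and 1.15 ± 0.16, and Cpsf4, a cleavage complex subunit, by 0.61 ± 0.17 and 1.00 ± 0.17. Npat, the coactivator of histone transcription, differed by 0.20 ± 0.17 (adjusted p = 0.39) and 0.46 ± 0.17 (adjusted p = 0.029). Hinfp, a factor of H4 promoters, did not pass (-0.35 ± 0.16 and -0.25 ± 0.15), nor did Lsm10 (-0.13 ± 0.34 and -0.03 ± 0.34) and Lsm11 (-0.29 ± 0.18 and 0.30 ± 0.17), which are subunits of the U7 snRNP. Eri1, an exonuclease of the histone mRNA end, passed in GMPs (0.90 ± 0.17) and not in CLPs (0.31 ± 0.17). Tut7, which adds uridines to histone mRNA in decay, was lower in both (-0.67 ± 0.17 and -0.41 ± 0.17), and Zfp473, a partner of the U7 snRNP, had 0.37 ± 0.22 and -0.35 ± 0.22.

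Of 19 histone chaperone and acetylation genes, 6 were higher and 1 lower in CLPs, and 16 were higher in GMPs. Asf1b, a carrier of new H3 and H4, differed by 2.45 ± 0.24 and 2.87 ± 0.24, Nasp, which holds the soluble H3 and H4 pool, by 1.47 ± 0.18 and 2.28 ± 0.19, and Chaf1a, the large subunit of the replication-coupled chaperone CAF-1, by 1.45 ± 0.18 and 2.22 ± 0.19. Of 11 replication-independent variants, whose mRNAs come from single genes outside the clusters, 6 were higher and 3 lower in CLPs, and 7 higher and 2 lower in GMPs. H2afx, the H2A variant that is phosphorylated at DNA breaks, differed by 2.88 ± 0.21 and 3.23 ± 0.21, Cenpa, the H3 variant of centromeres, by 2.25 ± 0.20 and 2.34 ± 0.20, and H2afz by 1.07 ± 0.20 and 2.02 ± 0.20. The linker variants went the other way. H1f0, known from cells that have stopped dividing, had log2 fold changes of -2.35 ± 0.20 and -1.55 ± 0.19, and H1fx -2.37 ± 0.26 and -0.71 ± 0.24, all at an adjusted p under 0.05. H3f3a and H3f3b, which encode the same H3 variant, differed in sign in CLPs (0.75 ± 0.20 and -0.77 ± 0.21). Between GMPs and CLPs, 14 processing, 15 chaperone and 28 S phase genes were higher in GMPs by TMM, and 3 processing genes were lower. Cpsf3, the nuclease that cuts histone pre-mRNA, differed by 0.97 ± 0.18 and Npm1, a nucleolar histone chaperone, by 1.35 ± 0.23. The direction of the histone members in this comparison depended on the scaling, and the list counts are given for TMM only.

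The next comparison asks whether NR changed the histone genes within a cell type of the old mice. By the edgeR test none of the members tested passed p under 0.01, of 47 in HSCs, 58 in CLPs and 55 in GMPs, where 0.726%, 0.412% and 0.986% of all genes did. At an unadjusted p under 0.05 there were 2, 0 and 1 members, against 3.84%, 3.21% and 4.8% of all genes. DESeq2 gave 0 members at p under 0.01 in each cell type and 2, 1 and 0 at p under 0.05. For the members the median log2 fold change was -0.09 (HSCs), 0.02 (CLPs) and -0.04 (GMPs), and that of all genes was -0.02, -0.005 and -0.002. The summed level differed between O-NR and O-WT by 0.07 on the log2 scale in HSCs (pooled SD 0.43), by 0.13 in CLPs (pooled SD 0.50) and by -0.02 in GMPs (pooled SD 0.17), all within the spread between mice. For Hist1h1b, the member with the largest cell type difference, the O-NR and O-WT libraries overlapped in each cell type.

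Hist1h2bc had the smallest p in HSCs, with 16.9, 11.5, 14.4 and 23.6 CPM in O-WT and 13.7, 7.25, 14.5 and 15.9 CPM in O-NR libraries. Its log2 fold change was -0.48 ± 0.20 (adjusted p = 0.995), and the groups overlapped. In CLPs it was Hist1h2ad, with 10.4, 7.64, 3.86 and 11.1 CPM in O-WT and 11.4, 14.6, 11.3 and 13.7 CPM in O-NR libraries (0.56 ± 0.29, adjusted p = 1.00). Its groups did not overlap, as was the case for 2.32% of all genes. In GMPs it was Hist1h4j, with 69.6, 76.8, 76.5 and 54.1 CPM and 61.0, 60.3, 54.8 and 65.6 CPM (-0.20 ± 0.09, adjusted p = 0.997). Leaving out GMP O-WT replicate 4, the lowest of its group, gave -0.27, past the unadjusted threshold of 0.01 (adjusted p = 0.53). Tests of whether the NR effect differed between cell types gave 0 of 58 members at edgeR p under 0.01 in each of the 3 comparisons (0.421%, 0.133% and 0.439% of all genes) and 1 member each at p under 0.05 (2.38%, 1.42% and 3.56%), Hist1h2ah for CLPs and for GMPs against HSCs and Hist1h2ad for GMPs against CLPs. DESeq2 gave 0 at p under 0.01 and 1 at p under 0.05 in each.

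**Figure D5:**
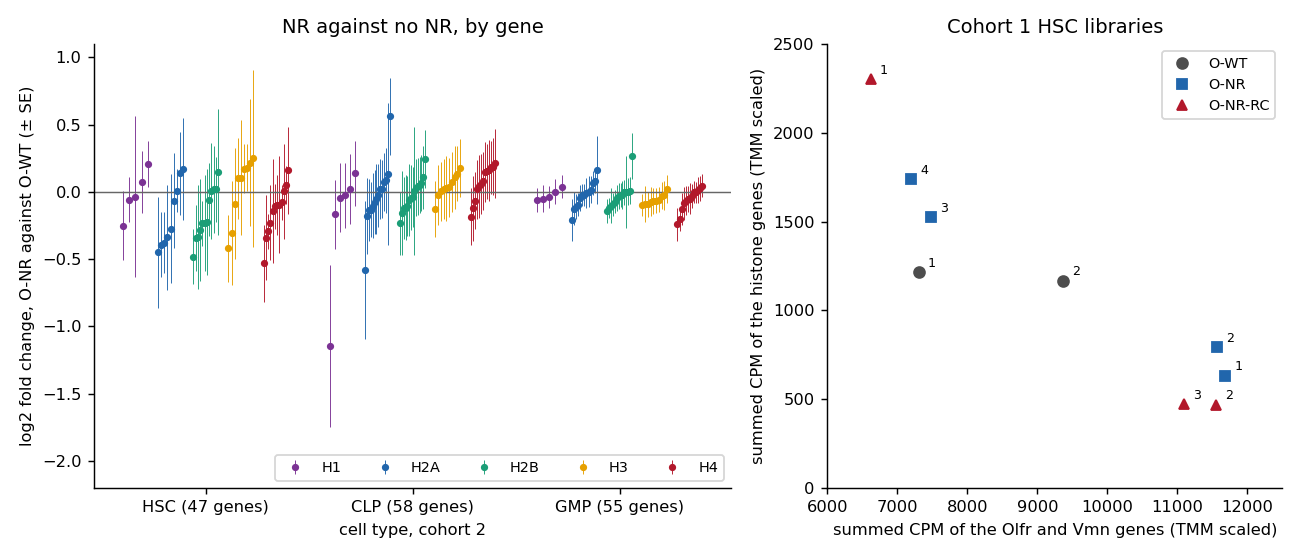
Left, log2 fold change (± SE) of each tested member in O-NR against O-WT mice in the 3 cell types of cohort 2, ordered within each histone type. Right, summed CPM of the histone genes against that of the Olfr and Vmn receptor genes in the 9 HSC libraries of cohort 1, numbered by replicate, with O-NR-RC replicate 1 at 2302 CPM above all others.

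None of the members of the 4 related lists passed p under 0.01 for NR in HSCs or CLPs (edgeR), and 1, 2, 0 and 0 of them in HSCs and 1, 1, 1 and 1 in CLPs passed p under 0.05, in the order processing, chaperones, variants and S phase. In GMPs 2 S phase genes passed p under 0.01, Ccne2 (log2 fold change -0.27) and Pole (0.24).

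Cohort 1 addressed NR and its withdrawal in HSCs. The members summed to 1213 and 1166 CPM in the O-WT mice, 632, 791, 1526 and 1737 CPM under NR and 2302, 468 and 472 CPM after its withdrawal. Values within O-NR and within O-NR-RC spread further than the groups differed. O-NR-RC replicate 1 had the highest sum of the cohort and the other 2 the lowest. TMM factors ran from 0.671 in O-NR-RC replicate 1 to 1.32 in O-NR-RC replicate 2, which widened the spread. By library total the sums were 1055 and 1130 CPM (O-WT), 779, 976, 1309 and 1352 CPM (O-NR) and 1545, 618 and 621 CPM (O-NR-RC). The S phase list moved with the histone sum, at 1571 and 1635 CPM, 1209, 1254, 1769 and 2168 CPM and 2532, 1000 and 1024 CPM, and the receptor genes moved against it, at 7309 and 9374 CPM, 11686, 11563, 7488 and 7201 CPM and 6622, 11547 and 11096 CPM. Erythroid markers summed to 114 CPM in O-NR-RC replicate 1 and 18.9 to 61.0 CPM in the others. Neutrophil markers were highest in O-NR-RC replicates 2 and 3, at 71.3 and 93.1 CPM against 33.7 to 59.3 CPM in the other 7 libraries. B-cell and plasma-cell markers summed to 332 CPM in O-NR-RC replicate 3 and to 59.5 to 165 CPM in the other 8. The part of these in the histone levels was not tested.

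Of 48 members tested, 0 passed an unadjusted p under 0.01 and 0 passed 0.05 in any of the 3 cohort 1 comparisons by edgeR or DESeq2, where 0.048%, 0.036% and 0.078% of all genes passed 0.01 by edgeR and 0.546%, 0.291% and 0.795% passed 0.05. Hist1h1t had the smallest p for O-NR against O-WT (0.54 ± 0.35) and for O-NR-RC against O-WT (0.52 ± 0.37), with 4.21 and 4.06 CPM in O-WT libraries, 8.56, 7.85, 3.91 and 3.79 CPM under NR and 5.50, 6.41 and 5.89 CPM after withdrawal. Like the receptor genes, it was higher in O-NR replicates 1 and 2 than in 3 and 4. Hist1h4i had the smallest p for O-NR-RC against O-NR (-0.61 ± 0.42). Without O-NR-RC replicate 1, 28 of 48 members were lower in O-NR-RC than in O-NR (0.312% of all genes) and 18 lower than in O-WT (0.942%) at p under 0.01, and 0 at an adjusted p under 0.05. These counts rest on which O-NR-RC libraries are kept. Hist2h3b, Hist2h2bb and Hist2h2aa2 had 0 counts in all 9 cohort 1 libraries, against 12386, 19504 and 293 counts over the 24 libraries of cohort 2, and each overlaps a gene on the opposite strand. Whether both cohorts were counted with the same strand and shared-read settings is not given in the sources used here.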

How the data were processed

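Total RNA was sequenced from sorted HSCs, CLPs and GMPs with the Pico version of a SMARTer stranded kit for total RNA. Per the labels, the authors trimmed reads with cutadapt, used STAR for alignment to mm10, and obtained counts per gene from featureCounts. The study's methods name GENCODE M22 for the STAR index, and versions of STAR and featureCounts were not given in the sources used here. The deposited files hold raw counts per gene symbol for 33 libraries. Reads shared by near-identical histone genes could be split or dropped at counting, and the strand setting and the handling of overlaps and shared reads were not given in the sources used here, for either cohort. Groups were taken from the labels.

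Here, counts were tested with edgeR 4.0.16 (quasi-likelihood F test, TMM scaling) in R 4.3.3, with Benjamini-Hochberg adjustment over all genes that exceeded 3 CPM in at least 4 libraries (cohort 2) or 2 libraries (cohort 1). Cell types were compared in the 12 libraries of a treatment at an adjusted p under 0.05, and NR in the 8 libraries of a cell type at p under 0.01, a threshold the study used. Cohort 1 was fitted on its 9 libraries. Alternatives were DESeq2 1.42.0, upper-quartile scaling, no filter, leaving out each library and a replicate block. On simulated counts from the HSC and CLP O-WT libraries (19140 genes), the adjusted test called 100 of 100 genes changed by 3 on the log2 scale and 10 of 100 changed by 1, and in the NR comparison of HSCs (16699 genes) 100 and 14 of 100. Counting intervals are not given, since replicates carry the error. Positions are from GENCODE M21 (GRCm38), uniqueness is the share of a transcript's 100-base windows found in no other gene's transcripts, and promoters are from RefSeq.

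The histone members, the gene lists and the tests were chosen with earlier results of these data known. Of 28 names in the processing list, 25 were among the symbols (Ars2, Zcchc6 and Zcchc11 were not). Genes were named by rule. These were the 2 members of each type with the highest mean, the 2 largest and 2 smallest called fold changes of each O-WT contrast, the member with the smallest p where NR gave no call, all Hist2, Hist3 and Hist4 members, the 3 smallest p of each list with the core processing factors, and members that did not pass. In cohort 2 a number was taken to mark 1 mouse over its 3 cell types. File names shared the number in 8 of 8 such sets, and the labels do not name the mouse. Deviations of same-numbered libraries had a mean correlation of -0.022 in O-WT and -0.025 in O-NR mice. Other pairs had 0.007 and 0.009, so the correlations do not bear out the pairing. Between O-WT and O-NR a shared number names different mice.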

Additional observations from a re-analysis of the deposited data

Results flagged for a closer look

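In 196 groups of 4 libraries examined for a library far from the others, 2 values stood apart, and chance alone would give about 1 in 20. Hist1h2an had 4.64 CPM in O-NR HSC replicate 4 of cohort 2, against 1.73 to 2.14 CPM in the other 3. Hist2h2be had 8.74 CPM in O-NR HSC replicate 3 of cohort 1, against 5.47 to 5.86 CPM in the other 3. No call in the report rests on either value.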

How the results depend on the processing

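The counts of members higher in CLPs and GMPs than in HSCs were 54 in both treatments under DESeq2, upper-quartile scaling, no filter and the replicate block, and 54 to 55 when single libraries were left out. The GMP against CLP counts depended on the processing. Upper-quartile scaling gave 12 called members in O-WT mice (3 higher, 9 lower) and 19 in O-NR mice (4 higher, 15 lower), so the balance turned. Leaving out 1 library gave 6 to 22 in O-WT and 9 to 17 in O-NR mice, and the replicate block gave 14 in each (13 higher, 1 lower). For NR in HSCs the replicate block gave 1 member, Hist1h2bc (-0.48, adjusted p = 0.63), and leaving out 1 library gave 0 to 1. In that check same-numbered O-WT and O-NR libraries had a mean correlation of 0.135 in HSCs, 0.031 in CLPs and 0.048 in GMPs. Other pairs of O-WT and O-NR libraries had -0.045, -0.0095 and -0.017. Whether same-numbered libraries of different treatments share more than a number was not tested. Apart from the GMP against CLP counts and Hist1h2bc in HSCs, the block changed no count of called members. Leaving out 1 library gave 0 to 2 for NR in GMPs (2 without GMP O-WT replicate 4), 0 to 1 for the NR effect in CLPs against HSCs, and in cohort 1 0 to 28 for O-NR-RC against O-NR and 0 to 18 for O-NR-RC against O-WT. Upper-quartile scaling gave 1 member for the NR effect in GMPs against HSCs. The summed GMP difference from HSCs was 2.94 on the log2 scale per library total, where the O-WT GMPs no longer lay above the O-WT CLPs. The cause of these changes was not tested. Hist2h2aa2 and Hist3h2ba stayed under the filter in every cell type comparison. Of their 100-base windows 0% and 95.1% are unique, and the part of depth and of read assignment in this was not tested.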

Other observations

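The 10 genes with such names left out by the mean level had low counts in every cell type. Hist2h3c2 (H3) averaged 0.744 CPM of library total over cohort 2, Hist1h2al (H2A) 0.726 CPM, Hist1h2ba (H2B) 0.382 CPM and Hist1h2aa (H2A) 0.344 CPM. Hist2h3c1 had 0 counts in all 24 libraries. It overlaps Gm20634 on the same strand. Hist2h2aa1, Hist1h2bq, Hist1h2ao, Hist1h2ap and Hist1h2br have 4.11 to 13.6% of their 100-base windows to themselves, so their counts depend on how shared reads were treated. Hist1h2al is annotated as a processed pseudogene. None of the 10 exceeded 2.02 CPM in any cohort 2 library.

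Cohort 1 and cohort 2 HSC libraries held the types in different shares. H2A took 5.41 to 8.36% of member counts in cohort 1 and 9.78 to 14.4% in the HSCs of cohort 2, and the Hist2 H2A genes took 10.9 to 14.7% of H2A counts against 27.2 to 37.0%. H1 took 37.5 to 47.0% against 29.04 to 37.4%. These are shares of raw counts, which scaling does not move. All 15 H2A members overlap a gene on the opposite strand, and whether both cohorts were counted with the same strand and shared-read settings is not given in the sources used here, so the difference was not tested.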
